A study of Mus musculus with 8 samples.

Results

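Matrix proteases, the enzymes that cut the proteins around cells, were examined together with their inhibitors and partners in endothelial cells (EC) of the mouse heart. Members were taken by gene symbol: Mmp, Adam, Adamts, Adamtsl or Timp followed by a number, and in addition Plau, Plaur, Prss23, Htra1, Htra3, Lox, Loxl1, Loxl2, Ctsb and Ctsl. This gave 67 members of 16791 genes. They were 15 ADAM, 16 ADAMTS, 5 ADAMTSL, 17 MMP and 4 TIMP genes, 2 genes of the plasminogen activator system, 3 serine proteases, 3 lysyl oxidases and 2 cathepsins. They were measured in cells that held a unique molecular identifier (UMI, 1 counted RNA molecule) of Cdh5 or Kdr and none of the leukocyte gene Ptprc. This was met by 28124 of 31028 deposited cells, and 26512 remained once cells copied between libraries were counted once.

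All 8 mice carried Pdgfb-iCreERT2 with the R26R-Brainbow2.1 (Confetti) reporter and received 1 dose of 150 mg/kg tamoxifen, so the cells are those in which a Pdgfb-driven Cre had recombined. In 4 MI mice the left anterior descending coronary artery was tied for good 14 days later, and hearts were taken 7 days post-MI. The 4 healthy mice received tamoxifen without surgery and were taken at 21 days, so the infarct and the operation cannot be told apart. CD31-positive, Confetti-positive and podoplanin-negative cells were sorted, with 1 library (10X Chromium) for each mouse (Healthy 227, 228, 239 and 240; MI 244, 250, 255 and 256).

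These cells numbered 1574 to 3423 per healthy and 3373 to 4829 per MI mouse, and their UMIs summed to 4943426 to 7766578 per healthy and 14678936 to 24316413 per MI mouse. The summed level of 7 EC markers was 5298 to 5716 CPM (UMIs of a gene per 1000000 UMIs of all genes) in healthy and 5045 to 5227 in MI mice. Cells copied between libraries, with the same barcode and at least 90% matching UMIs, were counted once, in the library with more UMIs for that cell. This removed 301 copies from Healthy 227, 2030 of 3669 deposited cells (55.3%) from Healthy 228 and 2 from Healthy 239. How the copies arose was not tested. With them kept in both libraries, 19 members were higher and 7 lower, with 2357 and 2290 of all genes. Healthy 227 and 228 stood apart from the other libraries. An unnamed cluster, C4, held 1572 of 2308 and 1057 of 1574 of their cells, against 32 and 29 cells of Healthy 239 and 240. Most of its 10 leading genes were predicted genes with Gm numbers, such as Gm7676 and Gm4070, and the others were Tgtp2, Tgtp1 and Ly6c2. What set C4 apart was not tested. The counts of calls over all cells, and the genes whose call changed, are therefore given also for fits without either pair of healthy mice. The pairs were not left out within classes, where 1 mouse was left out at a time. Markers of other cells moved with the groups as well. The summed level of 7 macrophage markers was 8.90 to 197 CPM in healthy and 226 to 480 CPM in MI mice, and that of 7 fibroblast markers was 46.3 to 103 and 143 to 272 CPM. None of these markers was at 0 in all mice, and their part in the results was not tested except where a fit without those cells is given.

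Matrix metalloproteinases (MMPs) cleave collagens and other matrix proteins, some as secreted and some as membrane-bound enzymes, and tissue inhibitors of metalloproteinases (TIMPs) block them. ADAMs shed the outer parts of membrane proteins, whereas ADAMTS enzymes are secreted and cut matrix proteoglycans such as versican. ADAMTSL proteins resemble ADAMTS but lack the catalytic part. The plasminogen activator urokinase, bound by its receptor, starts a proteolytic cascade at the cell surface, lysyl oxidases cross-link collagen and elastin, and cathepsins act mainly in lysosomes. After infarction, the matrix of the heart is taken apart and replaced by scar while new vessels form.

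Within the sums over all chosen cells, 44 members passed the filter on low counts and 23 did not, with 2 to 123 UMIs each in all mice together. Of the 44, 19 (43.2%) were higher and 6 (13.6%) lower in MI than in healthy mice in edgeR's quasi-likelihood test at a Benjamini-Hochberg adjusted p of 0.05. The background over 12480 genes tested was 18.1% higher and 18.0% lower. The 4 MI mice were all above the 4 healthy mice for 20 of the 44 members and all below for 4, against 22.9% and 12.0% of all genes tested. Since these are sums over cells, more cells of a type and more RNA per cell cannot be told apart in them. Median log2 fold change was 0.40 over the members and -0.02 over all genes tested, and the median absolute change was 0.94 and 0.31. In ADAMTS, MMP, plasminogen activator, serine protease, lysyl oxidase and cathepsin genes the called members were all higher, whereas ADAM, ADAMTSL and TIMP genes moved both ways. Against Healthy 239 and 240 alone, 17 members were higher and 3 lower, with 1758 and 1570 of all 13543 genes tested. Against Healthy 227 and 228 alone, 16 were higher and 6 lower, with 2441 and 2395 of 13613 genes. Timp1, Mmp14, Mmp2, Adamts4, Adamts8, Adamtsl1, Adamtsl2, Adam12, Prss23, Htra1, Plaur, Ctsb and Loxl1 were called higher, and Adam23, Adam28 and Timp3 lower, against either pair and in every other alternative that could be run for them.

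**Figure D1:**
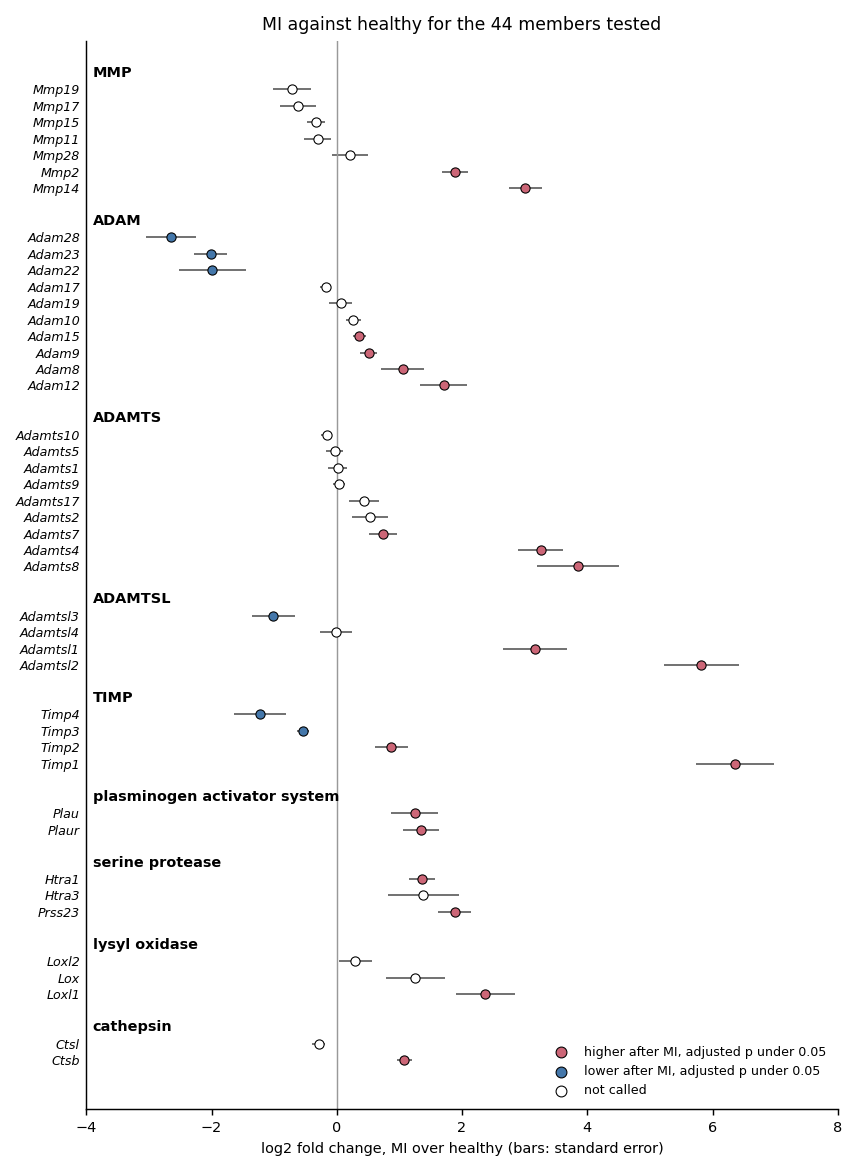
Log2 fold change between MI and healthy mice for the 44 tested members, grouped by family; bars are the standard error of the edgeR fit and colours mark the call. Timp1 and Adamtsl2 lie furthest to the right at 6.36 and 5.82, and Adam28 furthest to the left at -2.65.

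Timp1, a broad inhibitor of secreted MMPs, went from nearly no UMIs to detection in every MI mouse. Its level was 0, 0.202, 0.386 and 0 CPM in Healthy 227, 228, 239 and 240, and 14.1, 9.25, 23.0 and 9.40 CPM in MI 244, 250, 255 and 256. These were 4 UMIs in the healthy and 1213 in the MI group. The pooled ratio was 93.7 with a 95% exact counting interval of 36.5 to 344, and the log2 fold change was 6.36 ± 0.62 (SE, adjusted p = 0.000276, edgeR). The groups did not overlap, and the call held in every alternative that was run, with log2 fold changes of 5.14 in all deposited cells to 7.72 without Healthy 239.

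The other TIMPs moved less and not in one direction. Timp2, which also helps activate pro-MMP2 at the cell surface, stood at 26.2, 25.1, 53.7 and 41.2 CPM in healthy and 64.5, 54.7, 102 and 65.4 CPM in MI mice, a log2 fold change of 0.87 ± 0.26 (SE, adjusted p = 0.0257, edgeR). The lowest MI mouse was close to the highest healthy mouse, and against Healthy 239 and 240 alone the adjusted p was 0.157. Timp2 shares part of its strand with Cep295nl, so their reads may not be separable there. Timp3, the matrix-bound member of the family, was 549, 552, 690 and 540 CPM in healthy and 392, 443, 409 and 461 CPM in MI mice. It fell by 0.54 ± 0.10 on the log2 scale (SE, adjusted p = 0.00342, edgeR), every MI mouse lay below every healthy mouse, and the call held in all alternatives run. Timp4, an inhibitor known to be abundant in the heart, was 570, 241, 400 and 285 CPM in healthy and 89.9, 306, 89.2 and 189 CPM in MI mice. The groups overlapped, since MI 250 exceeded Healthy 228 and 240. Its log2 fold change was -1.23 ± 0.41 (SE, adjusted p = 0.0424, edgeR), and the call was lost in 10 of the alternative settings, including both fits against one pair of healthy mice alone (adjusted p = 0.134 and 0.0775).

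**Figure D2:**
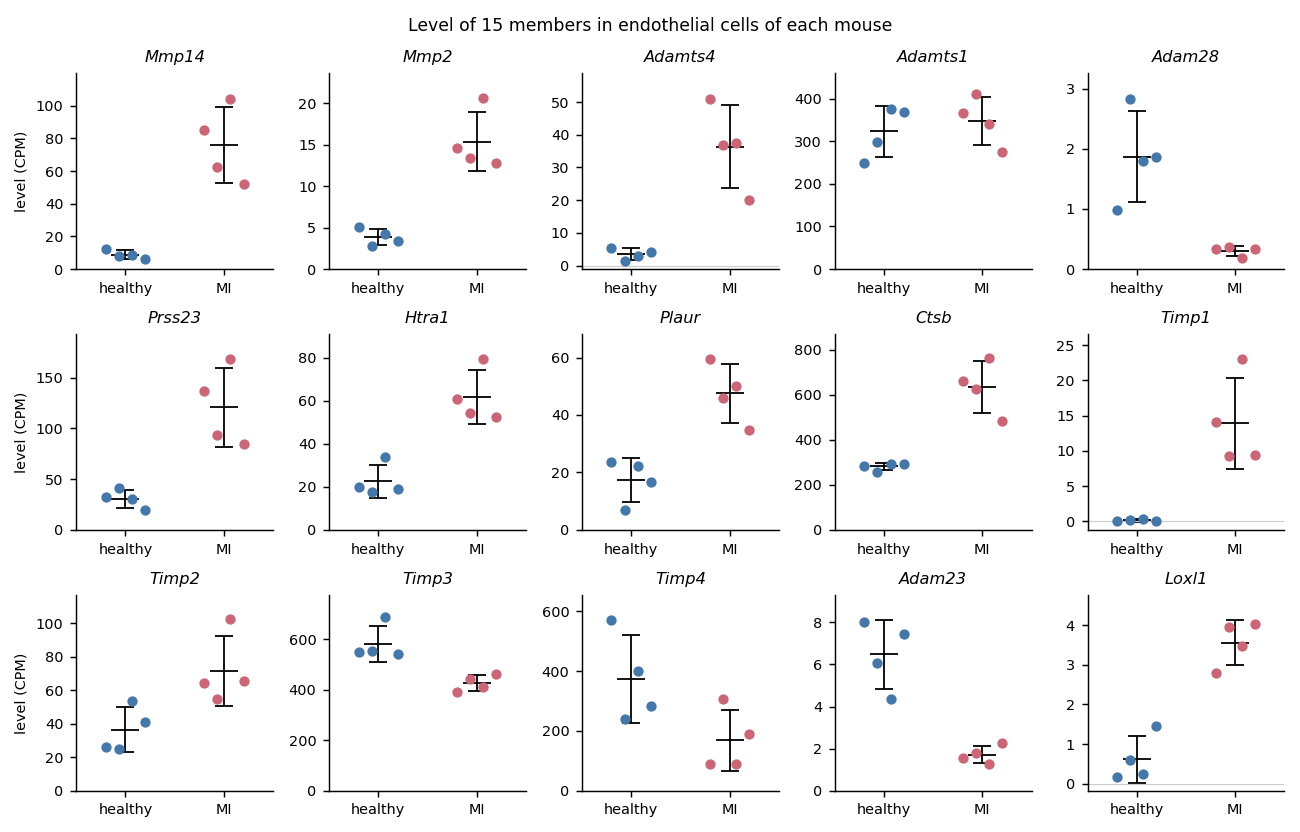
CPM of 15 members in each mouse, with the mean and SD of each group of 4 mice. The groups do not overlap for any of the genes shown except Adamts1 and Timp4, and the 4 healthy values of Timp1 lie at or near 0.

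Among the MMPs, 7 of 17 members could be tested. Mmp14, a membrane-bound collagenase that also activates pro-MMP2, was 12.5, 8.09, 8.76 and 6.26 CPM in healthy and 85.2, 62.3, 104 and 52.0 CPM in MI mice. The lowest MI mouse was above the highest healthy mouse by a wide margin, and the fold change was 8.07 (log2 3.01 ± 0.26 SE, adjusted p = 0.000197, edgeR). Mmp2, a secreted gelatinase, went from 3.87 ± 0.997 to 15.3 ± 3.57 CPM (SD, n = 4 mice each), a log2 fold change of 1.89 ± 0.21 (SE, adjusted p = 0.000491, edgeR) without overlap. Both calls held in all alternatives run. Of the UMIs of Mmp2 in MI mice, 18.4% came from a small fibroblast-like cluster that held 0.3% of all UMIs; without the clusters of other cell types the log2 fold change of Mmp2 was 2.19 (adjusted p = 0.00102, edgeR). The other 5 tested MMPs had log2 fold changes of -0.72 to 0.21 and were not called. Mmp9, the gelatinase known from neutrophils and macrophages, was at the edge of detection, with 2 UMIs in healthy and 9 in MI mice. Of those 9 UMIs, 7 were in macrophage-like cells.

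The ADAM genes changed in both directions, 4 higher and 3 lower of 10 tested. Adam23, known for binding integrins and lacking protease activity, was 8.03, 6.07, 4.38 and 7.46 CPM in healthy and 1.54, 1.81, 1.26 and 2.25 CPM in MI mice. It fell by 2.01 ± 0.26 on the log2 scale (SE, adjusted p = 0.000862, edgeR). Adam28 fell by 2.65 ± 0.40 (SE, adjusted p = 0.00162, edgeR), from 1.87 ± 0.76 to 0.306 ± 0.086 CPM (SD, n = 4), on 48 healthy and 26 MI UMIs. For both genes the groups did not overlap and the call held in all alternatives run. Adam22, a further member without catalytic activity, was 2.62, 1.21, 1.16 and 0.933 CPM in healthy and 0.125, 0.535, 0.270 and 0.681 CPM in MI mice (log2 fold change -1.99 ± 0.54 SE, adjusted p = 0.0190, edgeR). Healthy 227 was well above the other healthy mice, and without it the call was lost, as it was without Healthy 227 and 228 (adjusted p = 0.149).

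Of the ADAMs that were higher in MI mice, Adam12, a secreted or membrane-bound sheddase, showed the largest change, from 2.06 ± 0.92 to 7.11 ± 2.68 CPM (SD, n = 4; log2 fold change 1.71 ± 0.38 SE, adjusted p = 0.0076, edgeR). Adam9 went from 16.6 ± 2.87 to 25.1 ± 2.87 CPM (log2 0.51, adjusted p = 0.0151, edgeR) and Adam15, which is known from endothelium, from 336 ± 48.8 to 458 ± 46.3 CPM (log2 0.36, adjusted p = 0.0291, edgeR). For both genes every MI mouse was above every healthy mouse, but Adam15 was not called against either pair of healthy mice alone (adjusted p = 0.0583 and 0.0641). Adam8, a sheddase known from leukocytes, rose from 0.621 ± 0.148 to 1.36 ± 0.35 CPM (log2 1.05, adjusted p = 0.0367, edgeR). Of its 115 UMIs in MI mice, 46.1% were in the macrophage-like cluster, which held 2.1% of all UMIs, and without the clusters of other cell types Adam8 no longer passed the filter. The call was lost in 8 alternatives, including DESeq2, limma-voom and both fits against one pair of healthy mice (adjusted p = 0.105 and 0.159).

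The main sheddases Adam10 and Adam17, which release Notch receptors and TNF among other substrates, were not called. Adam10 was 114, 102, 77.2 and 81.7 CPM in healthy and 118, 115, 122 and 124 CPM in MI mice. All MI mice were above all healthy mice, but Healthy 227 was close to the MI range, and the log2 fold change was 0.27 ± 0.12 (SE, adjusted p = 0.118, edgeR). It was 0.52 (adjusted p = 0.00746) against Healthy 239 and 240, and 0.06 (adjusted p = 0.619) against Healthy 227 and 228. Adam17 was 47.9 ± 5.34 CPM in healthy and 45.0 ± 2.14 CPM in MI mice (SD, n = 4; log2 fold change -0.18, adjusted p = 0.148, edgeR), with overlapping groups.

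Adamts4, an aggrecanase that also cuts versican, rose in every MI mouse far above the healthy range. It was 5.41, 1.42, 2.96 and 4.26 CPM in healthy and 51.0, 36.7, 37.5 and 20.1 CPM in MI mice, a fold change of 9.56 (log2 3.26 ± 0.36 SE, adjusted p = 0.000457, edgeR). Adamts8 was 0, 0, 0.515 and 0.40 CPM in healthy and 2.33, 3.62, 7.21 and 3.41 CPM in MI mice. With 7 and 354 UMIs, its pooled ratio was 15.6 (95% exact counting interval 7.50 to 39.1; log2 fold change 3.85, adjusted p = 0.00262, edgeR). Its size depended on the healthy mice used, since Healthy 227 and 228 held 0 UMIs and the log2 fold change against Healthy 239 and 240 alone was 3.08 (adjusted p = 0.0179). Adamts1, a versican-cutting enzyme with anti-angiogenic activity, was not called. It was 250, 299, 377 and 370 CPM in healthy and 368, 410, 340 and 276 CPM in MI mice. Its groups overlapped and its log2 fold change was 0.02 ± 0.15 (SE, adjusted p = 0.938, edgeR). Adamts7, named here after its value was seen, was called higher with overlapping groups (log2 0.74, adjusted p = 0.0303, edgeR), and the other 5 tested ADAMTS genes were not called.

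Both higher ADAMTSL genes had few UMIs in healthy EC. Adamtsl2, which binds fibrillin and regulates TGF-beta availability, had 1 UMI in the healthy group, in Healthy 227, and 241 in the MI group, where the mice were at 2.79, 2.63, 3.47 and 2.25 CPM. The pooled ratio of 74.5 had a 95% exact counting interval of 13.2 to 2953, and the adjusted p was 0.000345 (edgeR). Without Healthy 227 the healthy group held 0 UMIs, so that no fold is given. Fibroblast-like cells held 11.6% of its MI UMIs. Adamtsl1 had 18 healthy and 555 MI UMIs and went from 0.624 ± 0.522 to 6.46 ± 2.41 CPM (SD, n = 4; log2 fold change 3.16, adjusted p = 0.00213, edgeR). Healthy 227 and 228 held 0 and 2 of its UMIs, and against Healthy 239 and 240 alone the log2 fold change was 2.54 (adjusted p = 0.0103). It overlaps Sh3gl2 on the same strand, and reads of the pair may not be separable there. Adamtsl3, named after its value was seen, was called lower with overlapping groups (log2 fold change -1.01, adjusted p = 0.0422, edgeR).

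In the plasminogen activator system both genes were called higher. Plaur, the urokinase receptor, was 23.6, 6.88, 22.3 and 16.8 CPM in healthy and 59.3, 45.8, 50.03 and 34.9 CPM in MI mice (log2 fold change 1.35 ± 0.29 SE, adjusted p = 0.00651, edgeR). The groups were apart and the call held in all alternatives run. Plau, urokinase itself, went from 1.25 ± 0.49 to 3.10 ± 1.12 CPM (SD, n = 4; log2 1.25 ± 0.38 SE, adjusted p = 0.0291, edgeR), and was not called against either pair of healthy mice alone (adjusted p = 0.0580 and 0.132).

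Of the serine proteases, Prss23, a secreted serine protease, was 32.8, 41.1, 30 and 19.6 CPM in healthy and 137, 93.5, 168 and 84.4 CPM in MI mice. The fold change was 3.70 (log2 1.89 ± 0.26 SE, adjusted p = 0.0011, edgeR). Htra1, a secreted protease known to act on matrix proteins and TGF-beta family signalling, was 20, 17.4, 33.7 and 19.1 CPM in healthy and 60.8, 54.5, 79.6 and 52.5 CPM in MI mice (log2 1.36 ± 0.21 SE, adjusted p = 0.00158, edgeR). In both genes every MI mouse was well above every healthy mouse, in all alternatives run the call held, and Healthy 239 was the highest healthy mouse for Htra1. Htra3 was 1.26 ± 0.86 CPM in healthy and 3.27 ± 2.08 CPM in MI mice (SD, n = 4) and was not called (log2 1.38, adjusted p = 0.0822, edgeR), and 62.4% of its MI UMIs were in the fibroblast-like cluster.

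Of the lysyl oxidases, which cross-link collagen and elastin, 1 of 3 was called. Loxl1, an elastin cross-linker, was 0.164, 0.607, 0.258 and 1.47 CPM in healthy and 2.79, 3.95, 3.47 and 4.02 CPM in MI mice (log2 fold change 2.37 ± 0.47 SE, adjusted p = 0.00485, edgeR). It was 3.35 without Healthy 240 and 0.86 in all deposited cells. However, 77.3% of its 299 UMIs in MI mice were in the fibroblast-like cluster, and without the clusters of other cell types it did not pass the filter on low counts. Lox was 1.66 ± 0.67 CPM in healthy and 4.34 ± 2.33 CPM in MI mice (SD, n = 4; log2 1.26, adjusted p = 0.0593, edgeR) and was called higher in 5 alternatives (adjusted p of 0.0124 to 0.0492), with 31.4% of its MI UMIs in fibroblast-like and 26.1% in arterial-like cells. Loxl2 was not called either (log2 0.30, adjusted p = 0.397, edgeR).

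Ctsb, encoding the lysosomal cysteine protease cathepsin B, was even across the healthy mice at 284, 258, 291 and 294 CPM, and was 661, 624, 765 and 485 CPM in MI mice. The fold change was 2.11 (log2 1.08 ± 0.12 SE, adjusted p = 0.000487, edgeR), without overlap. Macrophage-like cells held 11.2% of its MI UMIs, and without the clusters of other cell types the log2 fold change was 0.99 (adjusted p = 0.000245, edgeR). Ctsl, cathepsin L, was 482 ± 48.9 CPM in healthy and 420 ± 39.1 CPM in MI mice (SD, n = 4) and was not called (log2 -0.29, adjusted p = 0.0570, edgeR). It was called lower in 7 alternatives, including DESeq2 and the fit without the clusters of other cell types (log2 -0.30, adjusted p = 0.0342).

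Where these members lie, and what stands before their start sites, is given for 6 of them, chosen after their values were seen: 4 with higher and 2 with lower called levels in MI mice, whose windows held no annotated exon of the member or its neighbours. The table of RefSeq (GRCm38.p6) promoters used here held 41 of the 67 members. The 250 bases before the start were searched on both strands for an AP-1 site (TGANTCA), a GC box (GGGCGG) and a TATA box (TATAAA), which are printed in capitals, 5′ to 3′ on the strand of the gene. Timp1 lies on chromosome X at 20870166 to 20874735, where it overlaps Syn1 on the opposite strand, Mmp14 on chromosome 14 at 54431612 to 54445364, Plaur on chromosome 7 at 24462484 to 24475968, Prss23 on chromosome 7 at 89507783 to 89527187 (minus strand), Timp4 on chromosome 6 at 115241892 to 115252205 (minus strand, overlapping Syn2 and Gm17482 on the opposite strand) and Adam23 on chromosome 1 at 63445891 to 63596276.
Timp1, chrX:20869916-20870165, plus strand: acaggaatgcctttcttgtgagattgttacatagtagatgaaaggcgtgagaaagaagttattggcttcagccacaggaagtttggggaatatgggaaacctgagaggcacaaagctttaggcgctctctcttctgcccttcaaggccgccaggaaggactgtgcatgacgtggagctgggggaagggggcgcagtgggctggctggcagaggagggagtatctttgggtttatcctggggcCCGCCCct
Mmp14, chr14:54431348-54431597, plus strand: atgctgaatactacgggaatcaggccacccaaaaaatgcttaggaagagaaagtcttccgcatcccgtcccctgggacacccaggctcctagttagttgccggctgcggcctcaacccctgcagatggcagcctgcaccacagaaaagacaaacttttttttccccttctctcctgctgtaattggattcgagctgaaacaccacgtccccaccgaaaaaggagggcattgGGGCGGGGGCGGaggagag
Plaur, chr7:24462233-24462482, plus strand: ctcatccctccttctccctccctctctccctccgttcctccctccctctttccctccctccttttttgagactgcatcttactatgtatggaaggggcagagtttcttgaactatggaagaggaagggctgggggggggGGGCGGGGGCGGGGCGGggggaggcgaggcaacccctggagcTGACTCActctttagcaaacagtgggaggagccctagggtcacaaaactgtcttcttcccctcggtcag
Prss23, chr7:89527188-89527437, minus strand, first of 7 listed starts: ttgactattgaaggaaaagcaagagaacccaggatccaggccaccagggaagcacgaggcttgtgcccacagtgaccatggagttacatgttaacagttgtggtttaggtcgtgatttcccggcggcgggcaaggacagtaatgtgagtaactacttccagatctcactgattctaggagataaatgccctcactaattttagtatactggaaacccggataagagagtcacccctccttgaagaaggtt
Timp4, chr6:115252206-115252455, minus strand: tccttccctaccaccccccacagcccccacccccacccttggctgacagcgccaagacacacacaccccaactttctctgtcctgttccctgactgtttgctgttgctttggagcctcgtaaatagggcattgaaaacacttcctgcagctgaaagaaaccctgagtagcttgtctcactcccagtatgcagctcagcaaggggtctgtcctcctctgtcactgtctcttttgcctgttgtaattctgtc
Adam23, chr1:63445641-63445890, plus strand: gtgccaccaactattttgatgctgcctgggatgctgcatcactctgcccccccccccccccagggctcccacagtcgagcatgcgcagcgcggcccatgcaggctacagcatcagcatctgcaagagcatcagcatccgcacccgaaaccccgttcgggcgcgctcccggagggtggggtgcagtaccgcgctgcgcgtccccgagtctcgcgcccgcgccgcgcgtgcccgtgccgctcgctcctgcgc

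The window of Timp1 held 1 GC box beginning 8 bases before the start, that of Mmp14 held 2 and that of Plaur held 3 with an AP-1 site 69 bases before the start. Those of Prss23, Timp4 and Adam23 held none of the 3 motifs. A GC box stood in 25 of the 41 member windows (61.0%), against 8901 of 27025 promoters of the same length (32.9%). It was present in 8 of 9 windows of members called higher and 2 of 5 of members called lower. An AP-1 site stood in 3 of 41 member windows (7.32%) against 6.87% of all promoters, and a TATA box in 4 (9.76%) against 13%. A match describes the letters in the window and not binding.

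The other genes of pericellular proteolysis, a list of 50 activators, inhibitors, cathepsins and related proteins, were counted in the same fit. Of 43 tested, 23 were higher and 2 lower in MI mice, with a median log2 fold change of 0.52, against 18.1% higher, 18.0% lower and a median of -0.02 over all genes tested. Among the highest were Ctss (cathepsin S, known from macrophages; log2 3.49, 5.88 to 75.5 CPM), Thbs1 (the matricellular protein thrombospondin 1; 3.29, 1.85 to 19.7 CPM), Tll1 (a procollagen and chordin protease; 2.57) and Ctsh (cathepsin H; 1.79). The lowest called were Cst3 (cystatin C, an inhibitor of cysteine cathepsins; log2 -0.82, adjusted p = 0.0012, edgeR) and Ctso (-0.43), followed by 3 of the smallest increases, Cstb (0.42), Ctsz (0.43) and Serpinh1 (0.49). Cst3 went from 1838 ± 140 to 1104 ± 169 CPM (SD, n = 4) without overlap. Plat, the tissue plasminogen activator, was not called (log2 0.40, adjusted p = 0.0746, edgeR).

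Levels were then described by EC class. The cells were clustered with the members left out. Names, followed by -like, were given to clusters only from lists with at least 3 detected markers. Among the EC classes with at least 20 cells per mouse, Mmp14 was highest in MI mice in the cluster 6-like class, named for the detected markers Plvap, Lrg1, Bgn and Vwf, among others, of an MI-associated state. This class held 2195 cells, 99.5% of them from MI mice. Mmp14 averaged 190 ± 43.1 CPM there (SD, n = 4 mice; 133 to 234), against 89.6 ± 29.9 CPM in C9, a cluster led by Ackr1 and Lrg1 with MI cells only, where values are over 3 mice throughout, 66.6 ± 13.9 CPM in sprouting-like cells and 33.9 ± 14.5 CPM in stress-response-like cells, a class marked by Fos, Jun, Atf3 and Hspa1a. The sprouting-like name rested on 3 of 9 listed markers, Apln, Adm and Nid2. Esm1 and Pgf of the same list were detected in cluster 6-like cells instead. C9 was left unnamed, although all 5 MI-associated markers that named the cluster 6-like class were detected in it, with 4 of 10 venous markers. The leading genes of C9 included Ackr1, Selp, Tmem252, Tmem176a and Ehd4, which the paper lists for a cluster of MI cells only. The cluster 6-like values were all above those of the sprouting-like, arterial-like and stress-response-like classes. This one class held 42.2% of all Mmp14 UMIs in MI mice but 16.6% of all UMIs. Mmp14 and Prss23, which were not used to form it, were among its 10 leading genes, ranked against all other cells of both groups. With 99.5% of its cells from MI mice, that ranking favoured genes higher in MI mice. In the matching cluster at resolution 1 both were again leading genes, and at resolution 0.3 only Prss23 was. With 20 components or with the members clustered, neither was.

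Prss23 was similar in 3 classes, at 271 ± 63.0 CPM in cluster 6-like, 257 ± 39.6 in C9 and 252 ± 22.5 in venous-like cells, whose ranges overlapped. It was 32.6 ± 15.8 CPM in stress-response-like cells. Timp1 was 49.1 ± 12.7 CPM in C9 and 32.1 ± 5.80 CPM in cluster 6-like cells, and 2.44 ± 1.75 CPM in stress-response-like cells. C9 and cluster 6-like together held 56.2% of Timp1 UMIs of the MI group, from 21.15% of all UMIs. The fibroblast-like cluster held 5.36% of the Timp1 and 1.21% of the Mmp14 UMIs of that group, from 0.328% of all UMIs. Without the clusters of other cell types, the log2 fold change over all cells was 6.24 for Timp1 and 3.22 for Mmp14. Adamts4 was 66.7 ± 36.9 CPM in cluster 6-like and 46.5 ± 15.9 CPM in stress-response-like cells, which did not differ beyond their spread.

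Other members marked other classes. Htra1 was 202 ± 29.0 CPM in arterial-like cells, above the 94.2 ± 13.7 CPM of endocardial-like cells in every mouse, and 164 ± 54.5 CPM in a cluster led by the mural cell genes Acta2 and Rgs5. Timp3 was 951 ± 101 CPM in arterial-like cells, with endocardial-like cells at 733 ± 84.7 and C9 at 222 ± 68.8 CPM. Timp4 ran the other way to Timp1. It was 330 ± 143 CPM in stress-response-like cells and 305 ± 205 CPM in C1, a cluster led by the capillary genes Car4 and Aqp7 that was too poor in markers to be named, and 28.1 ± 15.7 and 22.2 ± 26.4 CPM in cluster 6-like cells and C9. Adamts1 was 713 ± 168 CPM in stress-response-like cells and 209 ± 47.4 CPM in sprouting-like cells. These levels were not tested between classes.

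**Figure D3:**
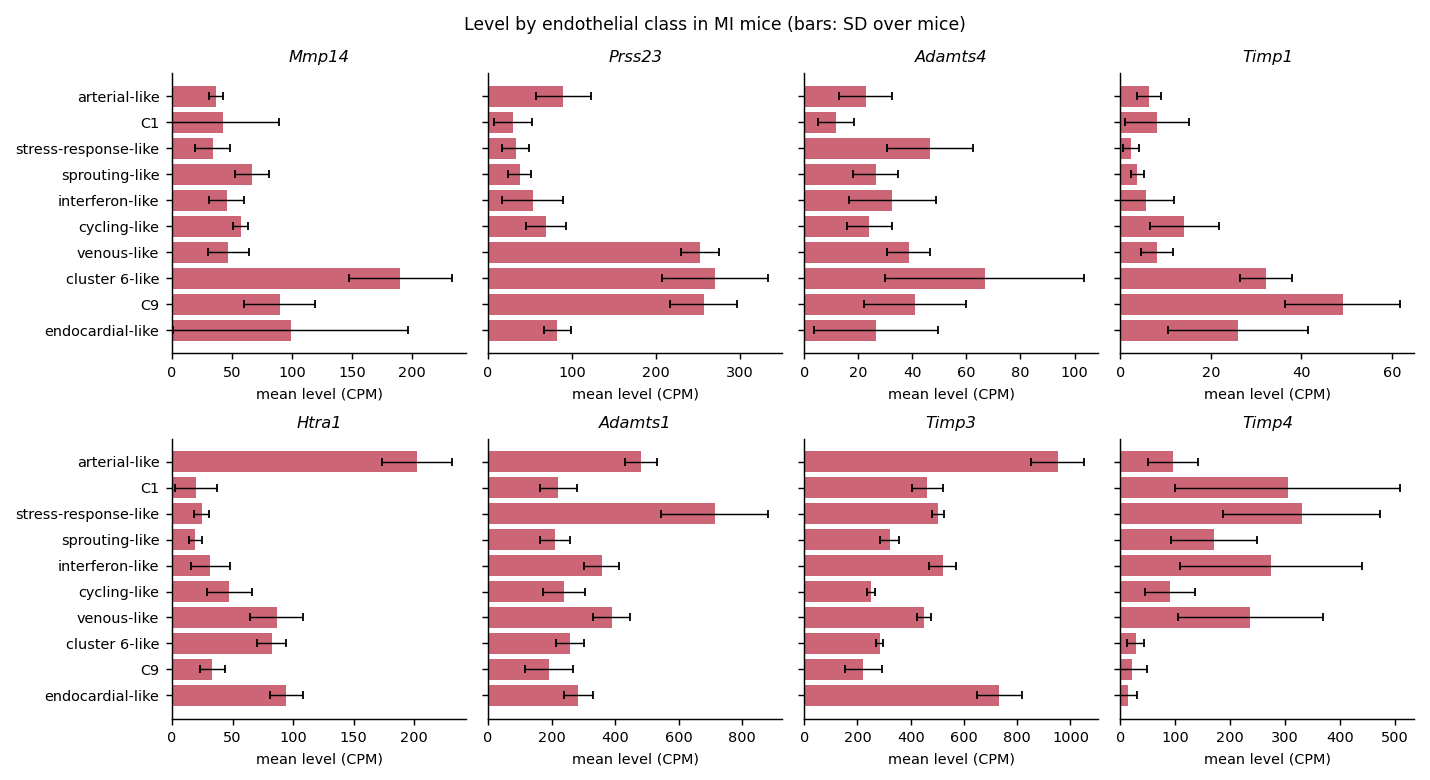
CPM of 8 members in 10 classes of MI mice, as mean and SD over mice with at least 20 cells of the class. Among these classes, Mmp14 peaks in cluster 6-like cells (190 CPM), Timp1 in C9 (49.1 CPM), Htra1 and Timp3 in arterial-like cells (202 and 951 CPM), and Adamts1 and Timp4 in stress-response-like cells (713 and 330 CPM).

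Whether members differed between MI and healthy mice within a class was tested in the 7 classes that had at least 20 cells in 3 or more mice of each group. Cluster 6-like, C9, venous-like, endocardial-like and lymphatic-like cells and C4 could not be tested. In arterial-like cells 9 of 22 tested members were higher and 0 lower, against 5.13% and 6.39% of 9146 genes. At an unadjusted p under 0.05 in the same edgeR test, 11 were higher and 0 lower, against 12.6% and 14.2% of these genes. The 9 called were Adamts4 (1.45 to 22.8 CPM, log2 fold change 3.78), Mmp14 (6.17 to 36.6 CPM, 2.65), Plaur (5.61 to 33.4 CPM, 2.40), Prss23 (26.2 to 89.5 CPM, 1.74), Htra1 (83.4 to 202 CPM, 1.21), Mmp2 (1.15), Adamts9 (1.06), Ctsb (0.90) and Adam15 (0.46), with edgeR adjusted p of 9.7e-05 to 0.0244. Every one of these had all MI mice above all healthy mice. Adamts9, a versican-cutting enzyme named after its value was seen, was not called over all cells. With 5 healthy UMIs of Adamts4, its pooled ratio in arterial-like cells of 15.4 had a 95% exact counting interval of 6.46 to 47.9.

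Stress-response-like cells gave 6 higher of 21 tested, against 4.80% of 9413 genes, and 0 lower, against 5.70% (edgeR; at an unadjusted p under 0.05, 8 were higher and 2 lower, against 13.3% and 13.5% of these genes). Adamts4 rose from 3.56 to 46.5 CPM (log2 3.24, adjusted p = 0.000122, edgeR), Mmp14 from 3.04 to 33.9 CPM (3.02), Prss23 from 8.39 to 32.6 CPM (2.39), Htra1 from 5.82 to 24.4 CPM (1.83), Plaur from 20.5 to 50.2 CPM (1.30) and Ctsb from 268 to 514 CPM (0.91). The groups were apart for these except Plaur. In sprouting-like cells 4 of 22 were higher, against 4.71% of 9091 genes, and 2 lower, against 5.58%. The higher ones were Prss23 (log2 2.81), Mmp14 (1.98), Adamts4 (1.20) and Ctsb (0.79), and the groups overlapped for the first 3. The lower ones were Adam19 (78.5 to 46.2 CPM, log2 -0.73, adjusted p = 0.00604, edgeR), a sheddase named after its value was seen, and Timp3 (477 to 321 CPM, -0.51, adjusted p = 0.0215). Without Healthy 240 neither of the 2 lower calls remained, and over all genes lower calls went from 5.58% to 2.16% and higher from 4.71% to 1.83%. At an unadjusted p under 0.05 in the edgeR test with all mice, 6 of 22 were higher and 2 lower. The shares over all genes were then 13.0% and 12.5%. Healthy 227 and 228 gave 66 and 30 sprouting-like cells.

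In the other 4 classes fewer members were called. Cycling-like cells had 3 higher of 24 tested, against 0.486% of 9050 genes, and 0 lower, against 0.630%. They were Prss23 (1 healthy and 794 MI UMIs, pooled ratio 43.2, 95% exact counting interval 7.74 to 1710), Mmp14 (log2 1.73) and Ctsb (0.84). Interferon-like cells had 2 higher of 20, against 0.940% of 8082 genes, and 0 lower, against 1.13%. They were Mmp14 (3 healthy and 284 MI UMIs, pooled ratio 8.83, interval 2.99 to 43.1) and Ctsb (log2 0.82). Only 3 healthy mice entered each of these fits, and 0 members were called in cycling-like cells without Healthy 239 or without Healthy 240, and in interferon-like cells without Healthy 227, 239 or 240. Few genes of any kind were called higher in these fits, 3 of 10273 and 4 of 10434 in cycling-like and 29 of 9013, 7 of 9056 and 0 of 9115 in interferon-like cells, in that order. In C1, 1 of 15 was higher, against 3.29% of 6171 genes, and 0 lower, against 3.99%. This was Ctsb (log2 0.65, adjusted p = 0.00871, edgeR). At an unadjusted p under 0.05 in the edgeR test, 9 were higher and 0 lower in cycling-like cells (7.44% and 7.35% of all genes), 10 and 1 in interferon-like cells (8.07% and 7.81%), and 4 and 1 in C1 (11.4% and 12.1%). In C10, an unnamed cluster, 0 of 5 were called at adjusted p of 0.05, against 1.25% higher and 3.61% lower of 1275 genes (edgeR; at an unadjusted p under 0.05, 0 were higher and 1, Timp4, lower, against 7.69% and 10.6%). Ctsb was called in 6 of the 7 classes, with log2 fold changes of 0.65 to 0.91, and Mmp14 in 5, with 1.73 to 3.05. The values of Ctsb within classes were all below the 1.08 over all cells.

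**Figure D4:**
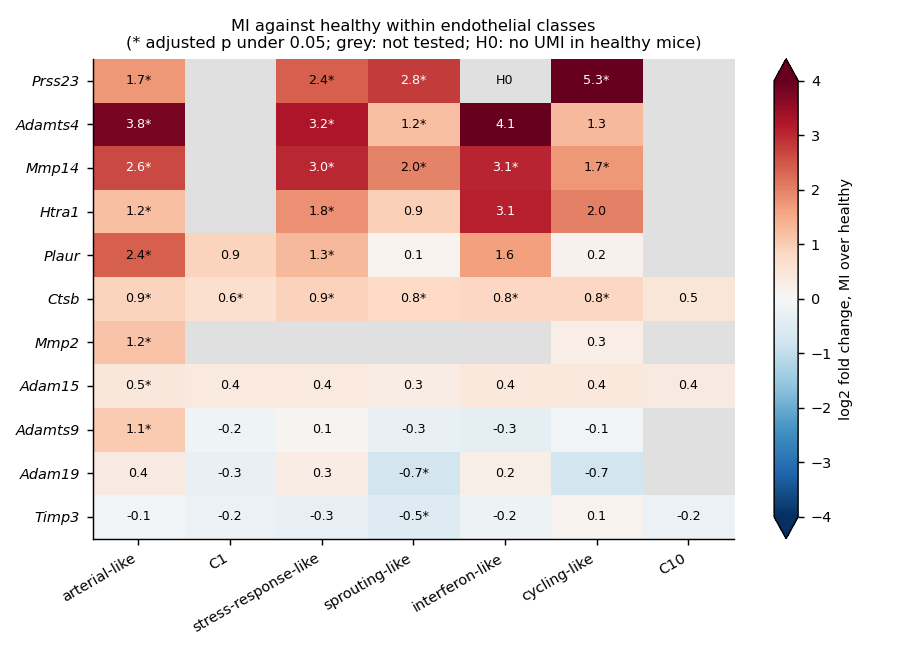
Log2 fold change between MI and healthy mice of the 11 members called in at least 1 of 7 classes; an asterisk marks a call, grey a member not tested there, and H0 a member with no UMI in the healthy mice of the class. Ctsb is called in 6 classes and Mmp14 in 5.

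When the fit was limited to the cells of the 7 tested classes, which leaves out cluster 6-like, C9, C4, venous-like, endocardial-like and lymphatic-like cells and the clusters of other cell types, 10 members were higher and 2 lower. Over all genes, calls went from 2260 to 1623 higher and from 2244 to 1551 lower. The higher ones included Timp1 (log2 6.30), Adamts4 (2.98), Mmp14 (2.87), Prss23 (2.39), Adam12 (1.63), Mmp2 (1.39), Plaur (1.20), Htra1 (0.94) and Ctsb (0.84). Adam23 (-1.67) and Timp3 (-0.497) were the lower ones. Timp2 (0.33), Timp4 (-0.61), Adam9 (0.23), Adam15 (0.27) and Plau (0.55) were not called there. C4, left out here, held 30.8% of the UMIs in healthy and 0.262% of those in MI mice. This setting was chosen after the data had been seen.

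The difference of the MI effect between classes was tested for the sprouting-like and stress-response-like classes, with the mouse as block, on 23 members. The effect in sprouting-like minus that in stress-response-like cells was higher for 1 and lower for 4, against 1.05% and 1.57% of 10059 genes. The p values of this fit follow a normal distribution of effect over SE, so a gene's own spread between mice hardly entered them. For Adamts1 the difference was 0.77 ± 0.12 (SE, adjusted p = 1.218e-07, edgeR). Adamts1 went from 149 ± 23.2 to 209 ± 47.4 CPM in sprouting-like and from 823 ± 54.8 to 713 ± 168 CPM in stress-response-like cells (SD, n = 4), and neither class alone gave a call. Timp2 went from 49.7 to 41.7 CPM in sprouting-like and from 9.38 to 24.8 CPM in stress-response-like cells, a difference of -1.26 ± 0.29 (SE, adjusted p = 0.00127). Adam19 differed by -1.002 ± 0.24 (adjusted p = 0.00265) and Plaur by -1.03 ± 0.25 (adjusted p = 0.00358). Plaur was 55.2 and 54.1 CPM in sprouting-like cells of healthy and MI mice. Adamts4 differed by -1.98 ± 0.49 (adjusted p = 0.00422), being 17.2 CPM in healthy sprouting-like cells and 3.56 CPM in healthy stress-response-like cells. Without Healthy 240 none of the 4 lower differences was called, while 1 higher difference was. The share over all genes in that fit is not given. Mmp14, with log2 fold changes of 1.98 and 3.02 in the classes, did not pass (difference -0.91, adjusted p = 0.465).

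**Figure D5:**
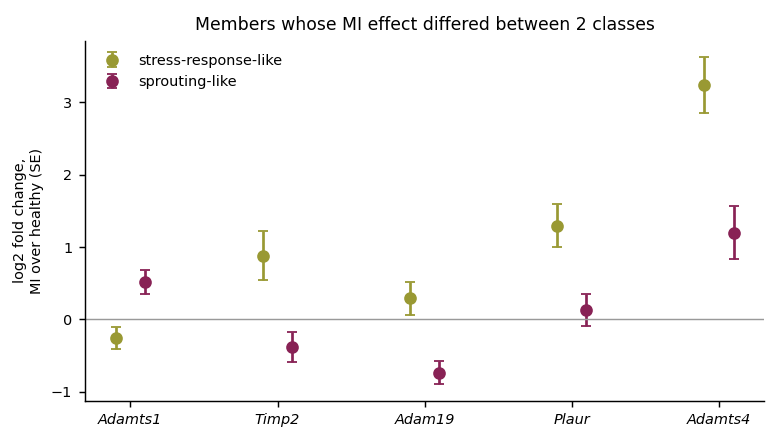
Log2 fold change between MI and healthy mice, with standard errors, in sprouting-like and stress-response-like cells for the 5 members whose effect differed between the classes. The sprouting-like value is above the stress-response-like value for Adamts1 (0.52 against -0.26) and below it for the other 4.

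The share of cells with a UMI was compared at equal depth, because cells of MI mice were deeper (median 3472 to 4769 UMIs per cell by mouse, against 1925 to 2796 in healthy mice). Each cell was thinned to 1000 UMIs, and 487 shallower cells, all healthy, were left out. Mmp14 was then found in 5.45% ± 2.35 of MI and 0.545% ± 0.089 of healthy cells (SD, n = 4), Prss23 in 6.93% ± 2.45 and 1.73% ± 0.42, and Adamts4 in 2.78% ± 1.08 and 0.314% ± 0.171. The unthinned shares were 22.4% and 1.96%, 22.8% and 3.94%, and 13.3% and 0.819%. As a rough measure of free RNA, 1 of 107 erythroid-like cells (0.935%, median 6838 UMIs before thinning) held Mmp14 and 1 held Prss23. The upper end of the exact 95% interval was 5.10% for each. For Adamts4, held by 0 of these cells, an approximate 1-sided 95% bound was 2.80%, so the limits are not of the same kind. Each of these cells had to hold a UMI of Cdh5 or Kdr, and 63.0% of the cluster came from MI mice. They are therefore not a neutral measure of free RNA. The MI mice ranged from 3.20% to 8.71% for Mmp14, from 5.03% to 10.2% for Prss23 and from 1.19% to 3.58% for Adamts4. Shares at or below these limits are not read as expression, nor as its absence. They include those of the healthy group for all 3 genes and the mean MI share of Adamts4. The same holds for every MI mouse at or below 5.10% for Mmp14 or Prss23, which covers at least the lowest mouse of each. In the cluster 6-like class at the same depth, Mmp14 and Prss23 were found in 15.04% and 14.95% and Adamts4 in 5.52% of cells (median 5284 UMIs before thinning).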

How the data were processed

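The authors deposited 1 table of UMI counts per gene and cell, as whole numbers without normalization, made from 10X Chromium 3′ libraries with Cell Ranger on mm10; per the labels, R 3.5.2 and Seurat 2.3 were used downstream. The authors had already left out cells of poor quality, and all 8 samples' cells carry the name of their mouse. Doublets and debris had been gated out during the sort; no doublet caller for the sequenced cells is given in the sources used here, and none was applied. The members, lists and tests were chosen with earlier results of these data known.

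Counts were summed per mouse, and per mouse and class, over cells with a UMI of Cdh5 or Kdr and 0 of Ptprc, and tested with edgeR 4.0.16 (TMM, filterByExpr, quasi-likelihood test, Benjamini-Hochberg over all genes tested) in R 4.3.3. CPM are UMIs of a gene per 1000000 summed UMIs. Cells were clustered with Seurat 5.3.0 (32 principal components, resolution 0.6, 13 variable members left out), and clusters were named after they had been seen, from at least 3 detected markers. A marker was detected when it was at least 1 log2 unit above other clusters, after 20 CPM were added, and present in at least 10% of cells. A class was tested with at least 20 cells in each of 3 mice per group. No capillary-like class could be named, so the planned comparison of arterial-like with capillary-like cells was replaced by that of the 2 largest named classes that could be tested. Members were named when called with the groups apart, or because they belong to a fixed set (the TIMPs, Mmp2, Mmp9, Mmp14, Adam10, Adam17, Adamts1 and the 10 members given singly); within classes, named members called there. Of the related genes, those with the highest and lowest called changes were named; 1 of them is not reported here. Alternatives included DESeq2 1.42.0, limma-voom (limma 3.58.1), other filters, scalings and clusterings, and leaving out each mouse. Alternatives added after the data had been seen were: either pair of healthy mice (227 and 228, or 239 and 240) left out, and only the cells of the tested classes. The code was tested on simulated data. Counting intervals cover counting error only. Positions are from GENCODE on GRCm38. Python 3.11.15, numpy 2.4.6, scipy 1.17.1 and pandas 2.3.3 were used.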

Additional observations from a re-analysis of the deposited data

Results flagged for a closer look

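In 60 groups of 4 mice checked for a value far from the others, 4 were found, and chance gives about 1 in 20. All lay in the healthy group. Adam22 was highest in Healthy 227 at 2.62 CPM and Adamtsl2 in the same mouse at 0.164 CPM, which is 1 UMI. Htra1 was highest in Healthy 239 at 33.7 CPM, as was Timp3 at 690.1 CPM.

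The MI effect differed between sprouting-like and stress-response-like cells for 5 of 23 members in the edgeR interaction test. A gene's own spread between mice hardly entered the p values of that test. Over all 10059 genes in the same test, 1.05% were called higher and 1.57% lower. The log2 difference, sprouting-like minus stress-response-like, was 0.77 for Adamts1, -1.26 for Timp2, -1.002 for Adam19, -1.03 for Plaur and -1.98 for Adamts4. Without Healthy 240 none of the negative differences was called, while a higher difference was. The share over all genes in that fit is not given. Adamts1 had a log2 fold change of 0.52 in sprouting-like and of -0.26 in stress-response-like cells, neither called alone.

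Cells with a UMI of Ptprc, which the comparisons above leave out, numbered 1095, from 9 to 63 per healthy and 102 to 355 per MI mouse. In these cells 5 of the 15 members with at least 300 UMIs were higher in every MI mouse than in every healthy mouse, which was not tested; over all 4094 genes with as many UMIs the share was 10.4%. Mmp12, the macrophage elastase, had a mean of 52.7 CPM in MI mice (11.5 to 94.6) and of 1.25 CPM in healthy mice (at most 4.99). Ctsb had means of 3849 and 1528 CPM, Plaur 90.6 and 33.5 CPM, Mmp14 76.3 and 11.3 CPM and Adam17 52.5 and 32.4 CPM.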

How the results depend on the processing

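No paired analysis was possible because the groups share no replicate numbers. Of 23 called named members, 16 kept the call and direction in every alternative run; Adam15, Adam22, Adam8, Adam9, Plau, Timp2 and Timp4 lost it in at least 1. Of 625 alternative values, 558 kept direction and call, 41 lost and 16 gained a call, and 10 changed sign, none of a called member. Those were Adamts1 (all deposited cells -0.0347, Healthy 227 and 228 left out -0.17, tested classes only -0.0498, and 1 mouse left out -0.0931 to 0.117, below 0 without Healthy 227, Healthy 228, MI 244 or MI 250), Htra3 (all deposited cells -0.0624) and Loxl2 (thinned cells -0.27, tested classes only -0.47). The cause was not tested.

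The 19 higher members became 12 with thinned cells and 10 in the tested classes only, and the 6 lower became 3 with thinned cells, 3 without Healthy 227 and 228, and 2 in the tested classes, where 4 related genes were lower. Over all genes, higher calls went from 2260 to 1394 with thinned cells and 1623 in the tested classes, and lower calls from 2244 to 1322 and 1551. Without a filter on low counts, members called higher were 7 in sprouting-like, 10 in stress-response-like, 6 in cycling-like, 7 in interferon-like and C1 and 3 in C10 cells, and 1 was lower in arterial-like, interferon-like and C1 cells. Over all genes in these fits, the share called higher was 4.46%, 4.57%, 1.44%, 2.12%, 2.87% and 0.495% in that order of classes, and the share called lower was 4.13%, 1.25% and 2.68%. With shared cells kept in both libraries, 5 were higher in cycling-like and 1 lower in sprouting-like cells (1.70% and 5.81% of all genes). With 20 components or resolution 1, 4 were higher in interferon-like cells (1.30% and 1.23% of all genes). At resolution 0.3, with 20 components and with the members clustered, only 2 of 9 sprouting markers were detected in the matching cluster. It was not named sprouting-like there, so the class comparison could not be made. The MI minus healthy share moved from 4.91 to 20.5 points unthinned and 8.88 at 2000 UMIs for Mmp14, to 18.8 and 8.497 for Prss23, and to 12.5 and 4.98 for Adamts4.

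Leaving out 1 mouse at a time, the higher members ranged from 14 to 19 and the lower from 3 to 6 (3 without Healthy 227, MI 244, MI 255 or MI 256), while calls over all genes ranged from 13.2% (without MI 255) to 20.1% (without MI 256) higher and from 12.2% to 19.6% lower. Within classes, higher calls ranged from 0 to 4 in cycling-like, 0 to 7 in interferon-like (7 without MI 256), 1 to 3 in C1, 3 to 6 in sprouting-like and 5 to 8 in stress-response-like cells, and lower calls from 0 to 2 in sprouting-like and 0 to 1 in interferon-like and stress-response-like cells. Over all genes, higher calls in the same fits ranged from 0.0292% to 0.589% in cycling-like, 0% to 2.40% in interferon-like, 1.55% to 4.70% in C1, 1.83% to 7.14% in sprouting-like and 2.23% to 7.30% in stress-response-like cells, and lower calls from 2.16% to 8.50% in sprouting-like, 0% to 2.92% in interferon-like and 2.67% to 6.30% in stress-response-like cells. Between classes, the lower differences ranged from 0 to 4. The share over all genes in those fits is not given, so this range is not read as a result about the members. The filter on low counts left the 23 members with 2 to 123 UMIs untested.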
